A study of Mus musculus with 15 samples.

Results

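The TIF1 family of mouse has 4 genes, Trim24, Trim28, Trim33 and Trim66, and its transcripts were followed here in RNA-seq of mammary glands and mammary tumors. The members were taken by gene symbol from the deposited tables, which hold 51826 genes, and all 4 symbols were found. The tables hold 15 libraries of 13 mice: mammary glands of 4 control mice (133, 392, 417_3 and 517_3), 3 carcinosarcomas (64, 567 and 897) and 3 carcinomas (89, 273_5 and 3956) labelled as Trim24COE, and 3 tumors labelled non-TRIM24 (219, FVB001 and FVB002). Each library was made from bulk tissue, so a smaller share of cells that carry a transcript and less transcript per cell cannot be told apart. The strain label of every mouse is FVB, and the design text gives the background of the controls as FVB/129. The tumor classes are those of the subtype label, which is Carcinoma for the non-TRIM24 tumors too. In the study's pathology list, the first pathologist called tumors 89 and 3956 carcinosarcomas and 567 a spindle cell carcinoma. The second pathologist's calls match the labels, so the class of 89 and 3956 was not agreed. Calls based on RNA-seq are listed there as well. They give 64, 567 and 897 as carcinosarcoma and 89 and 273_5 as carcinoma, and no call is shown for 3956. Whether the labels drew on these calls is not stated, so the classes may not be independent of the expression values. Comparisons between the classes use the labels alone.

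In the Trim24COE mice, a single-copy piggyBac transgene places FLAG-tagged mouse Trim24 cDNA behind a floxed lacZ-stop cassette. The study's methods place the integration in progeny of 1 founder. The MMTV-Cre transgene, which is active mainly in mammary epithelium, removes the stop. The control mice carried MMTV-Cre alone and, per the study's methods, such mice were kept as an aging colony of virgin females; the labels give no ages. The non-TRIM24 tumors arose spontaneously, and their genotype label is "unknown". The values were deposited in 2 sets, which are called batches here. Batch 1 holds the control glands and the Trim24COE tumors, and batch 2 holds the non-TRIM24 tumors. A second library each of control gland 133 and carcinoma 3956 is also in batch 2, so only these 2 mice link the batches. At which step the batches differ was not tested. Because the transgene is made of mouse Trim24 coding sequence, its reads cannot be told from those of the resident gene by their coding sequence. For RNA-seq the study's methods name GRCm38 and GENCODE M14 as the reference and no transgene sequence. How the authors' quantification treated transgene reads is not stated further and was not tested. What part of a Trim24 value comes from the transgene is therefore unknown.

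TIF1 proteins are chromatin-bound co-regulators that share B-boxes and a coiled coil with the wider TRIM family and add a PHD finger next to a bromodomain. TRIM24 (TIF1α) binds nuclear receptors and acts as a ubiquitin ligase for p53 through a RING finger. Its PHD finger and bromodomain together read histone tails. TRIM28 (TIF1β, KAP1) is the co-repressor of KRAB zinc finger proteins and brings SETDB1, HP1 proteins and the NuRD complex to silenced chromatin, including that of retroelements. TRIM33 (TIF1γ) binds SMAD proteins downstream of TGF-beta, and TRIM66 (TIF1δ) binds HP1 and is known mainly from testis.

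Values are in TPM, a unit that corrects for transcript length and has the same total in each library. Levels can thus be compared between genes, but the depth of reads is unknown, so no interval for counting error is given. Per library, 21060 to 34209 genes lay above 0 TPM, and 13474 to 16908 reached 1 TPM. Groups were compared with limma on log2(TPM + 1), over genes that reached 1 TPM in a number of libraries no smaller than the smaller group, and p-values were adjusted with the Benjamini-Hochberg method over all genes tested. Because 1 TPM is added, the change of a gene with low TPM is understated. Each mouse is 1 replicate, and where only batch 1 groups were compared the repeat libraries were left out.

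Cell markers fitted the tissue labels in part. The 11 epithelial markers, among them Epcam, summed to 2974 to 7463 TPM in the carcinomas and 1004 to 5945 TPM in the glands, but to 364 to 1398 TPM in the carcinosarcomas and to 458 TPM in non-TRIM24 tumor FVB001. These markers did not all move together. In carcinosarcoma 897 most of the sum was Krt8 (914 TPM) and Krt18 (463 TPM), with Epcam at 2.73 TPM. Krt5 was at 0.70 and 0.88 TPM in carcinomas 273_5 and 3956, against 961 TPM in carcinoma 89 and 40.8 to 409 TPM in the glands. The 9 fibroblast or mesenchyme markers, among them Vim, reached 5558 to 8837 TPM in the carcinosarcomas against 720 to 4381 TPM in the other groups. The 8 adipocyte markers, among them Adipoq, ranged in sum from 1714 to 28185 TPM over the glands and from 91.7 to 1018 TPM over the Trim24COE tumors. None of the 8 was at 0 in any library. In the non-TRIM24 tumors this sum was 129 TPM in 219, 18435 TPM in FVB002 and 39183 TPM in FVB001.

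The 4 members lie apart from one another in the genome. In GRCm38 (GENCODE M21), Trim24 (ENSMUSG00000029833.17) covers chr6:37870811-37966296 on the plus strand, Trim28 (ENSMUSG00000005566.14) chr7:12999114-13031035 on the plus strand, Trim33 (ENSMUSG00000033014.12) chr3:103279293-103358775 on the plus strand and Trim66 (ENSMUSG00000031026.15) chr7:109449006-109508134 on the minus strand. The longest annotated coding sequences run from 2502 bp in Trim28 to 4032 bp in Trim66, with 3153 bp in Trim24 and 3420 bp in Trim33. Of the members, Trim28 is overlapped by a gene on the opposite strand, Zbtb45 (chr7:13003898-13010034), which had 3.81 to 11.3 TPM over the libraries. The overlap lies in the annotated Trim28 span before its RefSeq start, whose promoter stretch printed below ends at chr7:13024151. The sources differ on whether strand was kept, so some Zbtb45 reads could count for Trim28 transcripts that reach into this part. Trim33 is overlapped by Gm43061 on its own strand, at 0 to 1.18 TPM.

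The resident promoters of the family are unlike in base composition, and those of the 3 members matched by symbol in RefSeq (GRCm38.p6), Trim24, Trim28 and Trim66, are printed to show it. The 250 bases before the start site are given 5′ to 3′ on the strand of the gene, with each CpG dinucleotide in capitals. They lie at chr6:37870561-37870810 (plus) for Trim24, chr7:13023902-13024151 (plus) for Trim28 and chr7:109508135-109508384 (minus) for Trim66.
Trim24: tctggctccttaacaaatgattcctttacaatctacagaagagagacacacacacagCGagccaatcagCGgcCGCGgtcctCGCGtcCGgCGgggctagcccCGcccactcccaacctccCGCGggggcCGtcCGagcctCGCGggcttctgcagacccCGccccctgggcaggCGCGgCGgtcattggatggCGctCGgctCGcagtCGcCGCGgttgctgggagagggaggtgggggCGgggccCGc
Trim28: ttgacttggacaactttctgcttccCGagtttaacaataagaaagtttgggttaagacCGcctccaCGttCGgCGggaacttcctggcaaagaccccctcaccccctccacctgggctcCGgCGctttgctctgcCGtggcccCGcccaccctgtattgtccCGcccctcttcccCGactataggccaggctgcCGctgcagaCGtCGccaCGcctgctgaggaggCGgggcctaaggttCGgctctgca
Trim66: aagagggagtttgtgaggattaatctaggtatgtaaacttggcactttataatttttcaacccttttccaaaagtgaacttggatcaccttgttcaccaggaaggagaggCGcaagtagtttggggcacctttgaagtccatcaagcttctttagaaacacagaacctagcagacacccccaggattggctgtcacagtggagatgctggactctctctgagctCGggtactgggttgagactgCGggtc

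In the 300 bases that run from 250 before to 50 after the start, Trim24 holds 33 CpG, more than 91.4% of the 32851 promoters in the reference table. Trim28 holds 23, more than 78.5% of them, and Trim66 holds 4, more than 31.4%, where the median promoter holds 7. The letters GGGCGG, searched on both strands, occur 4 times in the Trim24 window, 2 times in the Trim28 window and not in the Trim66 window, and 35.7% of all promoters hold them. The letters TATAAA, on both strands, occur once in the Trim66 window and in 13.6% of all promoters, and CCAAT, on both strands, occurs in the Trim24 and Trim66 windows and in 37.4% of all promoters. A second RefSeq start of Trim24, inside the gene, has 1 CpG in its 300 bases, more than 5.43% of all promoters. The transgene has a promoter of its own, so the Trim24 sequence above belongs to the resident gene alone.

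The members kept a fixed rank order at the top and the bottom but not in the middle. Trim28 was the most abundant of the 68 Trim genes in all 15 libraries, with 89.0 to 246 TPM over the 13 mice, above 95.8% to 97.6% of all genes with a value. Trim24 (5.34 to 24.1 TPM) and Trim33 (5.17 to 36.7 TPM) were close to each other, and over all libraries Trim24 ranked between 10 and 25 among the Trim genes and Trim33 between 7 and 20. Trim66 stayed below 1 TPM in every library (0.02 to 0.76 TPM) and ranked between 37 and 55 in the first libraries of the 13 mice, and 58 in the repeat of carcinoma 3956. The median mouse had 10.99 Trim28 transcripts per Trim24 transcript and 10.3 per Trim33 transcript.

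**Figure D1:**
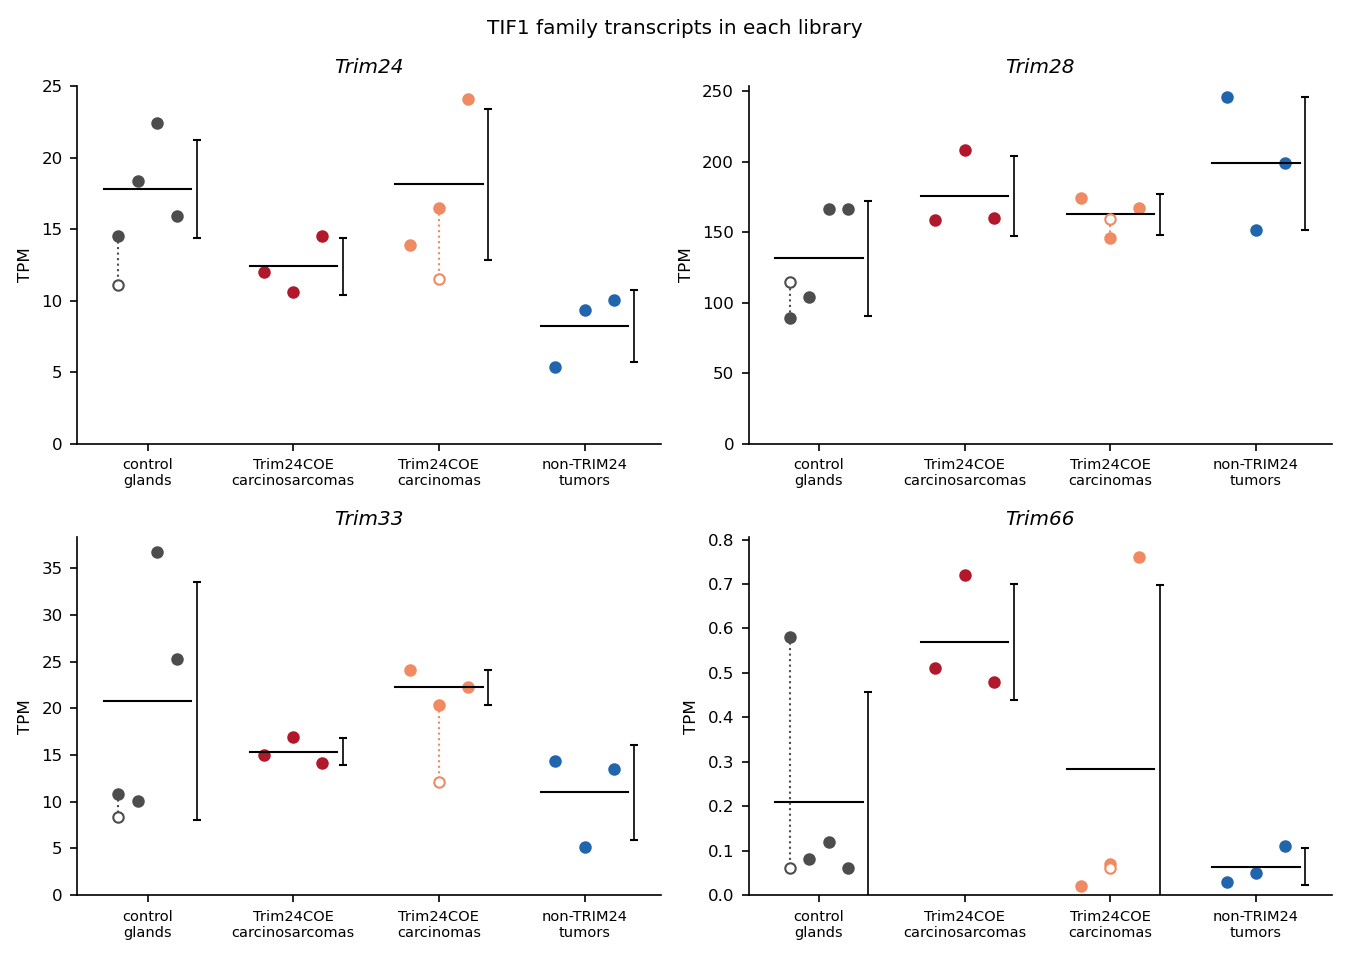
TPM of each member (vertical axes, linear, a scale of its own per panel) in the 4 groups; filled points are the first library of each mouse, horizontal lines and bars the mean and SD over mice (cut at 0), and open points joined by dotted lines the batch 2 repeats of control gland 133 and carcinoma 3956. Trim24 lies below 10.1 TPM in all 3 non-TRIM24 tumors, Trim28 and Trim33 are spread widely over the control glands, and Trim66 is under 1 TPM throughout.

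Trim24, the gene carried by the transgene, was not higher in the tumors labelled Trim24COE than in the control glands. It had 14.5 TPM in gland 133, 18.4 TPM in 392, 22.4 TPM in 417_3 and 15.9 TPM in 517_3. The carcinosarcomas had 10.6 TPM (64), 12.02 TPM (567) and 14.5 TPM (897), and the carcinomas 24.1 TPM (89), 13.9 TPM (273_5) and 16.5 TPM (3956). Carcinoma 89 alone lay above every gland, and 3 of the 6 tumors, carcinosarcomas 64 and 567 and carcinoma 273_5, lay below every gland. The deposited Trim24 values thus do not separate the 6 tumors labelled Trim24COE from the glands. They do not measure the transgene on its own. The paper reports that qRT-PCR, as its RNA-seq predicted, showed higher Trim24 RNA in Trim24COE tumors than in Cre-only glands. Its PCR tumors include 64, 89, 567, 897 and 3956. The deposited RNA-seq values do not show this rise. By tissue staining the paper also reports more TRIM24 protein in such tumors than in controls. Those PCR and protein measurements were not analysed here. The groups are those of the labels throughout.

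Over the 6 tumors Trim24 averaged 15.3 ± 4.77 TPM (SD, n = 6) against 17.8 ± 3.45 TPM (SD, n = 4) in the glands, a log2 difference of -0.24 with a 95% interval from -0.80 to 0.32 (limma adjusted p = 0.557). An exact two-sided permutation test over the mice gave p = 0.31. The interval therefore holds at most a rise of 0.32 on this log2 scale, for the bulk tissue and on top of a median of -0.04 over all genes tested. In this comparison 7.96% of the 15196 genes tested were higher and 9.13% lower in the tumors, and 0 of the 3 members that could be tested were among them; 0 of the 3 had an unadjusted p under 0.05.

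Within the tumors labelled Trim24COE, mean Trim24 was lower in the carcinosarcomas than in the carcinomas, a difference that did not pass the test. The carcinosarcomas averaged 12.4 ± 2.00 TPM and the carcinomas 18.1 ± 5.29 TPM (SD, n = 3 each). Against the glands the log2 difference was -0.48 for the carcinosarcomas (95% interval -1.08 to 0.11, limma adjusted p = 0.214) and 0.01 for the carcinomas (interval -0.68 to 0.69, limma adjusted p = 0.991). Between the classes it was -0.49 (interval -1.19 to 0.20, limma adjusted p = 0.469). The ranges of the classes overlap, since carcinosarcoma 897 lies above carcinoma 273_5.

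Trim24 was lowest in the non-TRIM24 tumors, with 5.34 TPM in 219, 9.34 TPM in FVB001 and 10.04 TPM in FVB002. These 3 values lie below those of the other 12 libraries, the batch 2 repeats of carcinoma 3956 (11.5 TPM) and of gland 133 (11.1 TPM) included. Of the 16775 genes tested, 7.28% had all 3 non-TRIM24 tumors below the other 12 libraries. The repeats were themselves lower than the first libraries of the same mice, by a log2 ratio of -0.52 for 3956 and -0.39 for 133. With the batch as a term and the libraries of a mouse linked, the tumors labelled Trim24COE were above the non-TRIM24 tumors by 0.38 on the log2 scale (95% interval -0.21 to 0.97, limma adjusted p = 0.412), beside a median of 0.21 over all genes. The non-TRIM24 tumors were below the glands by -0.63 (interval -1.26 to 0.00, limma adjusted p = 0.262), beside a median of -0.27. These comparisons called 2.3% and 0.709% of the 16775 genes (289 higher and 97 lower, and 34 higher and 85 lower; under median scaling 188 and 250, and 81 and 96), and none of the 3 members tested; unadjusted, 0 of 3 had a p under 0.05 in each. With first libraries and no batch term, where batch and group cannot be told apart, the differences were 0.81 and -1.05 (limma adjusted p = 0.0488 and 0.0320) and the exact permutation p was 0.0119 and 0.0286, the smallest that 6 against 3 and 3 against 4 mice allow. Over all alternatives without an omitted mouse, the adjusted p ran from 0.0488 to 0.892 for the first difference and from 0.0320 to 0.656 for the second.

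Trim28, the KRAB co-repressor, was more even across the 6 Trim24COE tumors than across the glands or the non-TRIM24 tumors. It had 89.0 TPM in gland 133, 104 TPM in 392, 167 TPM in 417_3 and 166 TPM in 517_3. The carcinosarcomas had 208 TPM (64), 158 TPM (567) and 160 TPM (897), the carcinomas 167 TPM (89), 174 TPM (273_5) and 146 TPM (3956), and the non-TRIM24 tumors 246 TPM (219), 152 TPM (FVB001) and 199 TPM (FVB002). Every Trim24COE tumor lay above glands 133 and 392, and 3 of the 6 lay above all 4 glands. The SD of log2(TPM + 1) was 0.17 over these 6 tumors, below that of all but 3.62% of the 11245 genes at or above 1 TPM in the 10 first libraries of batch 1, and 0.46 over the 4 glands, where 52.2% of genes varied less.

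The tumors labelled Trim24COE averaged 169 ± 21.4 TPM of Trim28 (SD, n = 6) against 131 ± 40.9 TPM (SD, n = 4) in the glands, a log2 difference of 0.41 (95% interval -0.08 to 0.90, limma adjusted p = 0.233, exact two-sided permutation p = 0.0857). The carcinosarcomas differed from the glands by 0.46 (limma adjusted p = 0.299) and the carcinomas by 0.35 (limma adjusted p = 0.549), with 95% intervals from -0.23 to 1.14 and from -0.33 to 1.04. Carcinosarcomas and carcinomas differed by 0.10 (interval -0.42 to 0.63, limma adjusted p = 0.862). With the batch term, the difference from the non-TRIM24 tumors was 0.01 (interval -0.58 to 0.59, limma adjusted p = 0.993). The non-TRIM24 tumors exceeded the glands by 0.38 (interval -0.25 to 1.00, limma adjusted p = 0.486), beside a median of -0.27 over all genes. Under median scaling this excess was 0.67 (interval 0.16 to 1.17, limma adjusted p = 0.162), beside a median of -0.04. In the comparison of Trim24COE with non-TRIM24 tumors, that scaling moved the median of all genes from 0.21 to -0.06. Taken relative to that median, Trim28 was there at -0.20 on the deposited scale and -0.27 after scaling.

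Trim33, the SMAD-binding member, varied more over the glands than over the 6 Trim24COE tumors. It had 10.8 TPM in gland 133, 10.1 TPM in 392, 36.7 TPM in 417_3 and 25.3 TPM in 517_3, a 3.64-fold range. The carcinosarcomas had 16.9 TPM (64), 15 TPM (567) and 14.1 TPM (897), the carcinomas 22.3 TPM (89), 24.1 TPM (273_5) and 20.3 TPM (3956), and the non-TRIM24 tumors 14.4 TPM (219), 5.17 TPM (FVB001) and 13.5 TPM (FVB002). All 6 Trim24COE tumors lay inside the range of the glands. Over the 4 glands the SD of log2(TPM + 1) was 0.87, larger than that of 85.0% of the genes compared, and over the 6 Trim24COE tumors it was 0.30, larger than that of 21.5%.

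The log2 difference of Trim33 between the tumors labelled Trim24COE and the glands was 0.03 (95% interval -0.75 to 0.82, limma adjusted p = 0.961, exact two-sided permutation p = 0.943). The interval reaches well to either side of 0, and the sign turned without carcinoma 273_5 or 89 or gland 133 or 392. All 3 carcinosarcomas lay below all 3 carcinomas, 15.4 ± 1.43 TPM against 22.2 ± 1.88 TPM (SD, n = 3 each), a log2 difference of -0.51 (interval -1.05 to 0.03, limma adjusted p = 0.357; exact permutation p = 0.1, the smallest that 3 against 3 mice allow). Of the 14193 genes tested there, 14.4% had every carcinosarcoma below every carcinoma, and 0.113% were called higher and 0.585% lower in the carcinosarcomas. None of the 3 members tested was called, and at an unadjusted p under 0.05 there were 0 of 3. The batch 2 repeat of carcinoma 3956 had 12.1 TPM of Trim33, below all 3 carcinosarcomas, so the separation rests on the first library of that mouse.

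Against the glands, Trim33 differed by -0.22 in the carcinosarcomas (interval -1.27 to 0.83, limma adjusted p = 0.765) and by 0.29 in the carcinomas (interval -0.79 to 1.36, limma adjusted p = 0.783). With the batch term it differed by 0.25 between Trim24COE and non-TRIM24 tumors (limma adjusted p = 0.756) and by -0.26 between non-TRIM24 tumors and glands (limma adjusted p = 0.802), beside the medians of all genes, 0.21 and -0.27; its sign turned in both under median scaling. With first libraries and no batch term, 5 of the 6 Trim24COE tumors lay above every non-TRIM24 tumor (exact permutation p = 0.0238), but batch and group cannot be told apart there; over the alternatives the limma adjusted p ran from 0.109 to 0.989.

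**Figure D2:**
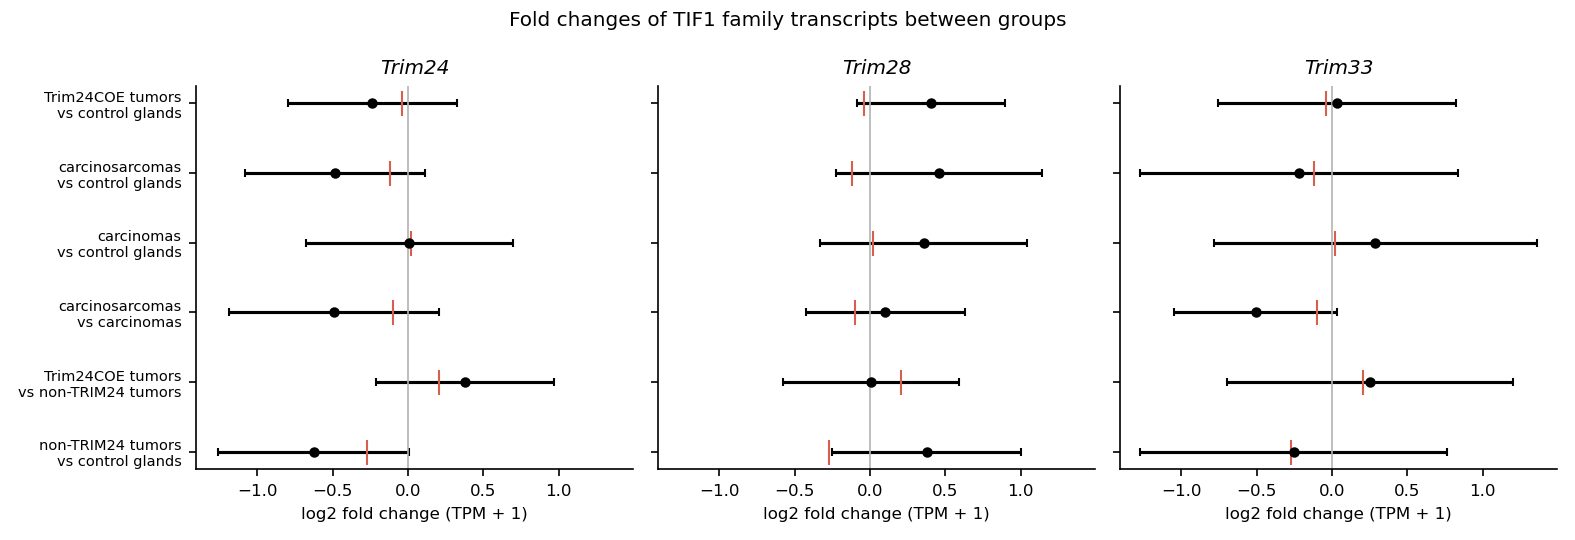
Log2 fold change of TPM + 1 (horizontal axes) with its 95% interval from limma for Trim24, Trim28 and Trim33 in the 6 comparisons (rows); the red tick is the median over all genes tested in that comparison. Each of the 18 intervals reaches 0, the nearest to it being Trim24 in non-TRIM24 tumors against glands (-1.26 to 0.00) and Trim33 in carcinosarcomas against carcinomas (-1.05 to 0.03).

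The control glands with low and with high Trim28 and Trim33 also differed in their marker levels. Glands 133 and 392, with 21586 and 28185 TPM of adipocyte markers and 1004 and 1450 TPM of epithelial markers, held the low values of both genes. Glands 417_3 and 517_3, with 1714 and 1890 TPM of adipocyte markers and 5771 and 5945 TPM of epithelial markers, held the high ones. Trim24 did not split this way, since gland 392 (18.4 TPM) lay above 517_3 (15.9 TPM). The share of all genes that split the glands as Trim28 and Trim33 did was not counted. Among the non-TRIM24 tumors, FVB001 had the most adipocyte marker transcripts and the least Trim28 and Trim33. The part of cell make-up in these values was examined only through the covariates that follow.

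With the adipocyte markers as a covariate, the log2 difference of Trim28 between the tumors labelled Trim24COE and the glands was -0.01 in place of 0.41, and that of Trim33 was -0.62 in place of 0.03 (limma adjusted p = 0.983 and 0.327). For carcinosarcomas against glands, Trim33 passed the threshold with the adipocyte covariate at -1.30 (limma adjusted p = 0.0158) and took the opposite sign with the epithelium covariate at 1.86 (limma adjusted p = 0.0675). Trim28 passed it with the epithelium covariate at 1.59 (limma adjusted p = 0.0472) and lay at -0.14 with the adipocyte covariate (limma adjusted p = 0.698). The adipocyte marker sums of these groups do not overlap, 150 to 186 TPM in the carcinosarcomas against at least 1714 TPM in the glands. Over all alternatives without an omitted mouse, the adjusted p of this comparison ran from 0.0158 to 0.893 for Trim33 and from 0.0472 to 0.698 for Trim28.

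**Figure D3:**
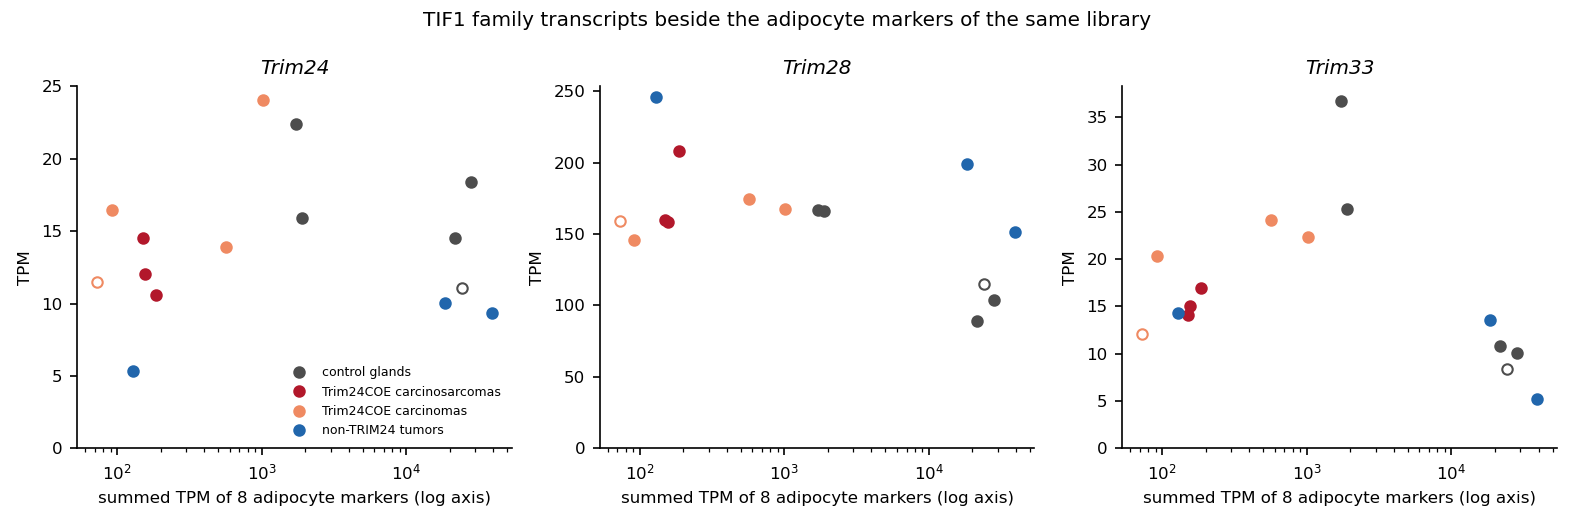
TPM of Trim24, Trim28 and Trim33 (vertical axes, linear) against the summed TPM of 8 adipocyte markers in the same library (horizontal axes, log scale), 1 point per library; open points are the batch 2 repeats. The 2 glands near 1714 to 1890 TPM of adipocyte markers have the higher Trim28 (166 and 167 TPM) and Trim33 (25.3 and 36.7 TPM) of the 4 glands.

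Trim66, the member known from testis, had the lowest levels of the family. Its values were 0.58, 0.08, 0.12 and 0.06 TPM in glands 133, 392, 417_3 and 517_3. The carcinosarcomas had 0.72 (64), 0.51 (567) and 0.48 TPM (897), the carcinomas 0.76 (89), 0.02 (273_5) and 0.07 TPM (3956), and the non-TRIM24 tumors 0.03 (219), 0.05 (FVB001) and 0.11 TPM (FVB002). Thus 5 of the 13 mice had 0.48 to 0.76 TPM, with all 3 carcinosarcomas among them, and the other 8 had 0.02 to 0.12 TPM. Gland 133 had 0.58 TPM in its first library and 0.06 TPM in its repeat, while carcinoma 3956 had 0.07 and 0.06 TPM. The first library of gland 133 also had more genes above 0 TPM than its repeat, 34209 against 24093, and whether this bears on Trim66 was not tested.

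Since Trim66 did not pass the filter on low values, it was compared by exact permutation over mice. The log2(TPM + 1) difference between the tumors labelled Trim24COE and the glands was 0.23 (exact two-sided permutation p = 0.348), and those of carcinosarcomas and carcinomas against glands were 0.39 and 0.06 (exact permutation p = 0.114 and 0.686). Carcinosarcomas and carcinomas differed by 0.33 (exact permutation p = 0.4). With the repeat libraries of 133 and 3956 in place of the first ones, an alternative chosen after seeing the data, each carcinosarcoma lay above every gland, and the means differed by 0.54 (exact permutation p = 0.0286, the smallest that 3 against 4 mice allow; over the alternatives with all mice the p ran from 0.0286 to 0.315). How many of all genes set the carcinosarcomas above every gland in this way was not counted. Without the filter, limma gave adjusted p = 0.483 and 0.315 for the 6 tumors and the carcinosarcomas against the glands. No difference was detectable at these levels, whose depth is unknown.

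TPM ratios between members within a library do not depend on how libraries are scaled against each other. Trim28 was 5.64 to 10.4 times as abundant as Trim24 in the glands, 10.99 to 19.6 times in the carcinosarcomas, 6.95 to 12.5 times in the carcinomas and 16.2 to 46.0 times in the non-TRIM24 tumors. The log2 Trim24/Trim28 ratio averaged -3.42 ± 0.49 (SD, n = 6) in the tumors labelled Trim24COE and -2.78 ± 0.39 (SD, n = 4) in the glands, and 4 of the 6 tumors lay below every gland. This difference of -0.64 gave an exact two-sided permutation p of 0.0619, or 0.3 after Benjamini-Hochberg adjustment over the 6 ratio tests. The repeat library of gland 133 had 10.3 Trim28 transcripts per Trim24 transcript where its first library had 6.12.

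The Trim33/Trim28 ratio was narrow within each tumor class. Trim28 was 7.17 to 7.51 times as abundant as Trim33 in the 3 carcinomas and 10.6 to 12.3 times in the 3 carcinosarcomas, without overlap. The log2 difference of -0.61 had an exact permutation p of 0.1, the smallest possible here, and 0.3 adjusted. How many other gene pairs separate the classes without overlap was not counted. Gland ratios ran from 4.54 to 10.3 and those of the non-TRIM24 tumors from 14.7 to 29.3, and the 6 tumors labelled Trim24COE differed from the glands by -0.37 (exact permutation p = 0.162, adjusted 0.3). The repeat of carcinoma 3956, at 13.2, fell outside the range of both classes. The Trim24/Trim33 ratio was near 1, between 0.372 and 1.82 over all mice, and differed by -0.27 between these tumors and the glands (exact permutation p = 0.471, adjusted 0.566) and by 0.02 between the classes (exact permutation p = 1, adjusted 1).

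**Figure D4:**
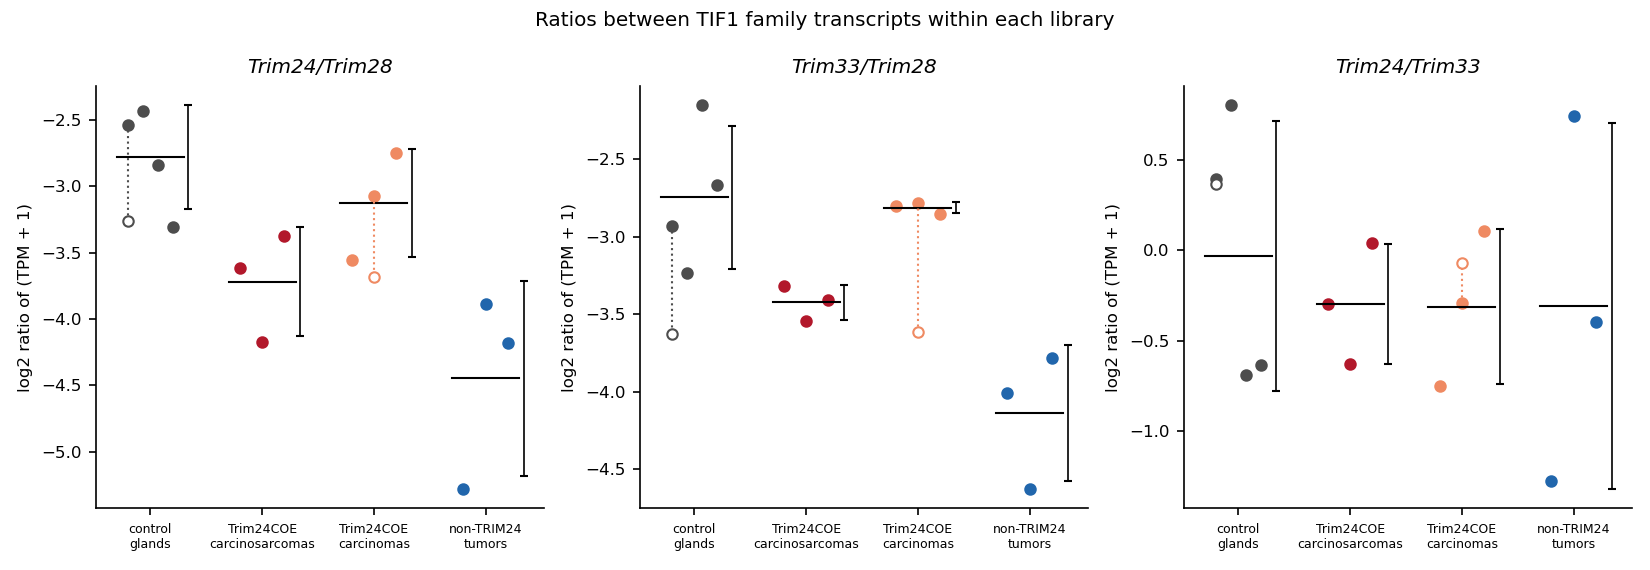
Log2 ratio of TPM + 1 between members within each library (vertical axes) for the 4 groups; filled points are first libraries, lines and bars the mean and SD over mice, open points the batch 2 repeats of gland 133 and carcinoma 3956. The Trim33/Trim28 ratio separates the first libraries of carcinosarcomas and carcinomas, while the repeat of carcinoma 3956 lies below both classes.

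In the batch 2 libraries of mice 133 and 3956, Trim24 and Trim33 were lower and Trim28 higher than in the first libraries. In gland 133 the repeat had 0.763 times the Trim24, 0.774 times the Trim33 and 1.29 times the Trim28 of the first library. In carcinoma 3956 these were 0.698, 0.595 and 1.09 times. The median log2 ratio of all genes at or above 1 TPM in both libraries was 0.07 for 133 (14075 genes) and -0.07 for 3956 (13322 genes). In 3956, 10.2% of genes were as far apart as Trim33 and 21.8% as far apart as Trim24; in 133, 31.5% and 29.3%. The non-TRIM24 tumors, all in batch 2, had the lowest mean Trim24 and Trim33 and the highest mean Trim28 of the 4 groups.

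The genes that TIF1 proteins act with were taken as lists and read from the same fits. In carcinosarcomas against glands 9.83% of the 15287 genes tested were higher and 13.1% lower (1503 against 2008 genes, or 1868 against 1459 after quantile normalization); in carcinomas against glands 1.58% and 1.92% of 15479 were. Of the 15 genes of HP1, SETDB1 and HUSH silencing, 2 were higher (13.3%, against 7.96% of all genes) and 0 lower in the tumors labelled Trim24COE than in the glands, with a median log2 change of 0.33 against -0.04 over all genes. Suv39h1, a histone H3 lysine methyltransferase of heterochromatin, averaged 22.0 ± 8.07 TPM in the 6 tumors against 8.89 ± 2.65 TPM in the 4 glands (log2 fold change 1.19, SE 0.30, limma adjusted p = 0.0206). Cbx5, which encodes HP1α, rose by 1.16 (limma adjusted p = 0.0296). Against the glands, 3 of the 15 were higher and 1 lower in the carcinosarcomas, where Cbx3 (HP1γ) rose as well by 0.76 (limma adjusted p = 0.0466). There Fam208a, the TASOR subunit of the HUSH complex, fell from 13.8 ± 5.97 TPM in the glands to 4.69 ± 0.622 TPM (limma adjusted p = 0.0286). Setdb1 did not pass the test, at 0.33 in the 6 tumors (limma adjusted p = 0.408). Suv39h1 was the only gene of any list called against the non-TRIM24 tumors, at 1.53 (limma adjusted p = 0.0379). It makes 6.67% of its list, where 2.3% of all genes were called in that comparison. With repeats as separate libraries, 0 of the 16775 genes tested were called higher there. The 6 cycling-cell markers, among them Mki67, summed to 222 to 451 TPM in the Trim24COE tumors, to 22.6 to 115 TPM in the glands and to 37.8 to 245 TPM in the non-TRIM24 tumors; their part in these changes was not tested.

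Of the 13 NuRD genes, 1 was higher (7.69%, against 7.96% of all genes) and 0 lower in the 6 tumors, with a median of 0.30. It was Hdac2, a histone deacetylase, with 98.2 ± 11.6 TPM against 58.0 ± 4.70 TPM in the glands (log2 fold change 0.74, limma adjusted p = 0.0131). Hdac2 was also the only one higher in the carcinosarcomas (0.77, limma adjusted p = 0.0338), 7.69% of the list against 9.83% of all genes. Rbbp7, a histone-binding subunit and the most abundant of the list, had 178 ± 80.4 TPM in the carcinosarcomas and 110 ± 21.7 TPM in the carcinomas (limma adjusted p = 0.537).

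Nuclear receptors, a class that TRIM24 can bind, changed downward where they passed the test. Of 10 tested, 0 were higher and 4 lower (40.0%, against 9.13% of all genes) in the 6 tumors, with a median of -0.73. Esr1, the estrogen receptor, averaged 1.20 ± 0.431 TPM over the 6 tumors against 9.74 ± 1.48 TPM over the 4 glands and fell by 2.30 on the log2 scale (SE 0.23, limma adjusted p = 0.000298). Thrb, a thyroid hormone receptor, fell by 1.73 (limma adjusted p = 0.00197), and Rxra, a retinoid X receptor, fell by 0.92 (limma adjusted p = 0.0352). Esr1 was lower in both classes, at -2.23 in the carcinosarcomas and -2.36 in the carcinomas (limma adjusted p = 0.00180 and 0.0151). Thrb was at -1.77 and -1.68 (limma adjusted p = 0.00747 and 0.0430). With Rxra, 3 of 10 were lower in the carcinosarcomas (30.0%, against 13.1% of all genes), and 2 of 11 in the carcinomas (18.2%, against 1.92%). The glands and tumors also differed in their adipocyte marker sums given above, whose part in these changes was not tested. The retinoic acid receptor Rara, a known TRIM24 partner, did not pass the test (0.45, limma adjusted p = 0.342).

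Of the 9 SMAD and SKI genes tested, 0 passed in the 6 tumors, with a median of 0.14. Smad4, the common SMAD that TRIM33 can modify, was at 0.14 (limma adjusted p = 0.852), and Ski, a SMAD co-repressor, at -0.26 (limma adjusted p = 0.664). In the carcinosarcomas the inhibitory Smad6 alone fell (11.1% of the list, against 13.1% of all genes). It fell by 1.24 (2.48 ± 1.05 TPM against 7.23 ± 2.21 TPM in the glands, limma adjusted p = 0.0383). Of the 4 genes of the p53 axis, 0 passed in the 6 tumors and 1 was lower in the carcinosarcomas (25.0%, against 13.1% of all genes). It was the p53 inhibitor Mdm4, with 8.77 ± 1.90 TPM against 33.5 ± 13.5 TPM in the glands (fell by 1.76, limma adjusted p = 0.00996). Cdkn1a, the p53 target p21, had 41.4 ± 13.8 TPM in the carcinosarcomas and 179 ± 75.4 TPM in the carcinomas, a log2 difference of -2.03 that did not pass after adjustment (limma adjusted p = 0.109).

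The KRAB zinc finger genes, whose products recruit TRIM28, had calls in both directions, at shares near or below those of all genes. In the 6 tumors 1 of 26 was higher and 1 lower (3.85% each, against 7.96% and 9.13% of all genes). In the carcinosarcomas 2 of 27 were higher and 4 lower (7.41% and 14.8%, against 9.83% and 13.1%), with a median of -0.46 against -0.12 over all genes. Zfp809, which silences retroviral elements, fell by 1.74 in the carcinosarcomas (5.99 ± 2.24 TPM against 22.1 ± 5.51 TPM in the glands, limma adjusted p = 0.00851), and Gm15446 fell by 1.56 (limma adjusted p = 0.0198). Zfp57, a guardian of genomic imprints, and Zfp52 rose by 1.32 and 1.24 (limma adjusted p = 0.0350 and 0.0411). KRAB genes have close copies in the genome, so how reads were divided among them is uncertain.

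Among 15 other proteins with a PHD finger or bromodomain, 0 were higher and 2 lower (13.3%, against 9.13% of all genes) in the 6 tumors, with a median of -0.40. Baz2b averaged 20.0 ± 5.49 TPM in the tumors against 46.5 ± 15.5 TPM in the glands (fell by 1.16, limma adjusted p = 0.0179), and Brpf3 fell by 0.81 (limma adjusted p = 0.0437). In the carcinosarcomas Baz2b was the only one lower (6.67%, against 13.1% of all genes), and in the carcinomas 0 passed. Of the other Trim genes tested, 1 of 37 was higher and 2 lower in the 6 tumors. Both shares lay below those of all genes, 7.96% and 9.13%. In the carcinosarcomas 1 of 36 was higher, a share below the 9.83% of all genes. There 9 were lower (25.0%, against 13.1% of all genes), with a list median of -0.49. Trim59 rose by 2.27 in the carcinosarcomas (41.4 ± 4.13 TPM against 9.25 ± 6.14 TPM, limma adjusted p = 0.0156), and Trim68 and Trim7 fell by 2.37 and 2.56 (limma adjusted p = 0.00203 and 0.00290). Trim11 was the sole gene of the lists called between carcinosarcomas and carcinomas, with 7.45 ± 0.474 TPM against 30.3 ± 6.42 TPM (fell by 1.87, limma adjusted p = 0.0378). In the carcinomas against the glands, no gene of these lists other than Esr1 and Thrb passed.

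**Figure D5:**
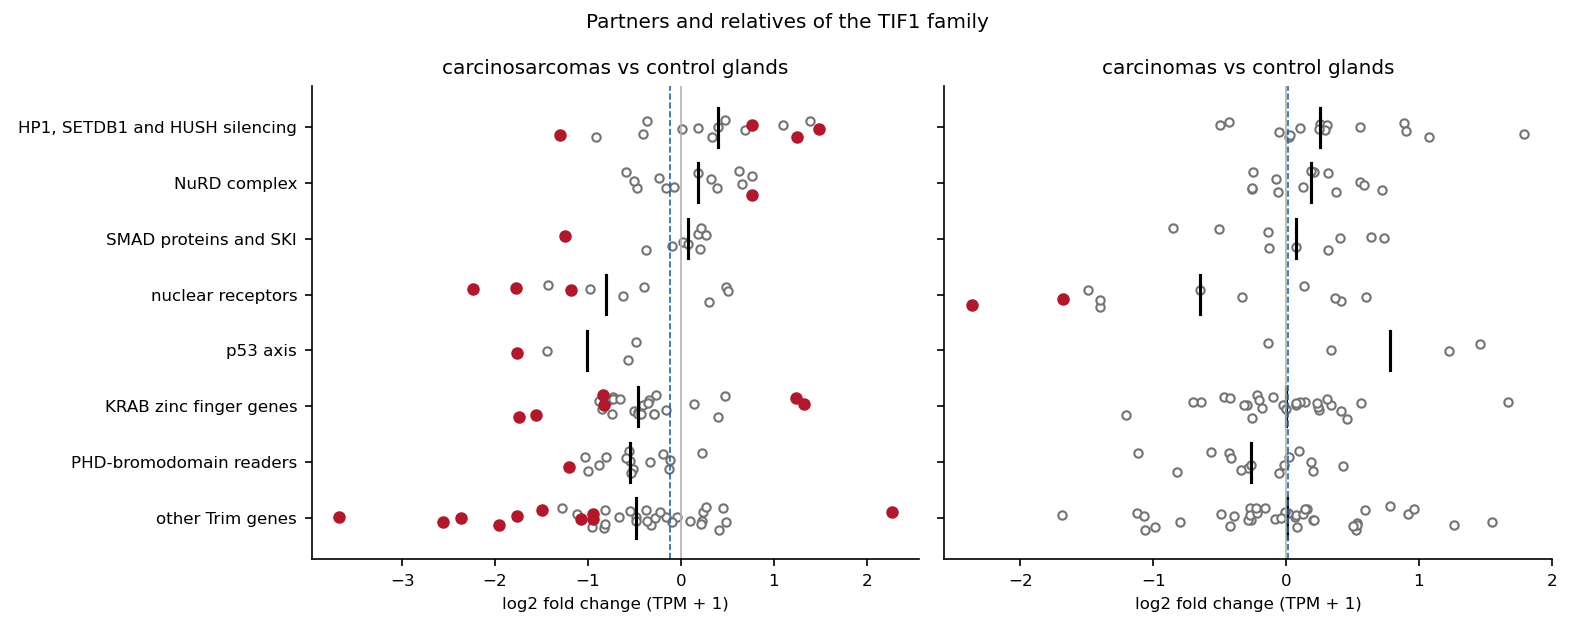
Log2 fold change of TPM + 1 against the control glands (horizontal axes) for each tested gene of the 8 lists (rows), in carcinosarcomas (left) and carcinomas (right); red points passed a limma adjusted p of 0.05, open points did not, black bars are list medians, and the dashed line is the median over all genes. In the carcinosarcomas 9 of 36 other Trim genes lie to the left in red, and in the carcinomas Esr1 and Thrb are the only red points.

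Likeness to each member was measured as the root-mean-square difference of log2(TPM + 1), centred on each gene's mean, over the 10 first libraries of batch 1, among the 10633 named genes at or above 1 TPM in all of them. These values are a description, with the 10 libraries shared by all genes. The genes nearest to Trim24 were Trpm7 (0.10), Ftx (0.12), Zfp595 (0.13), Odf2 (0.13) and Cenpo (0.13), where a flat gene would be at 0.33 and the median gene was at 0.58. Nearest to Trim28 were Rae1 (0.10), Snrpa1 (0.11), Ahsa1 (0.13), Snrnp40 (0.14) and Rnaseh2b (0.14), of which Rae1 carries RNA out of the nucleus and Snrpa1 and Snrnp40 are spliceosome components. Nearest to Trim33 were Zfp148 (0.14), Man1a2 (0.14), Bend3 (0.14), Gemin5 (0.15) and Jade3 (0.15), where a flat gene would be at 0.52. By the same measure the members were at 0.39 for Trim28 and Trim33, 0.49 for Trim24 and Trim33 and 0.51 for Trim24 and Trim28. These distances lay below that of the median gene. A flat gene, however, would be nearer to Trim24 (0.33) and to Trim28 (0.34) than any other member was. For Trim33 the other members were nearer than a flat gene (0.52). None of the 3 named another member among its nearest 5.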

How the data were processed

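RNA-seq was measured in 15 libraries of 13 mice, grouped by the genotype and subtype labels. The authors deposited TPM values, made per the paper's methods by trimming, STAR alignment to GRCm38 and RSEM with GENCODE M14; the labels' processing notes also name TopHat and Cufflinks and the build mm10. The sources differ on the RNA and library kits, so strand use is unclear. The TPM were used as log2(TPM + 1) in limma 3.58.1 (R 4.3.3; lmFit, eBayes with a variance trend), two-sided, at an adjusted p of 0.05. For non-TRIM24 tumors the fit held every library, with batch as a term and duplicateCorrelation to link libraries of a mouse (consensus 0.951, estimated on every 8th gene). Permutation tests used scipy 1.17.1. Fits were tested on simulated data. Members, lists and tests were chosen with earlier results of these data known. Named partners were up to 2 per list and direction with the smallest adjusted p in each comparison within batch 1, or else the most abundant; Cbx3 in the carcinosarcomas, Setdb1, Rara, Rxra and Smad4 were named outside this rule, with their values seen, and 1 nuclear receptor counted as lower is not reported here by name. Labels call mice separate samples, so p-values measure the spread between mice. Alternatives changed the pseudocount, filter, scaling, covariates, libraries and mice used.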

Additional observations from a re-analysis of the deposited data

Results flagged for a closer look

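One value stood apart from its group by Dixon's gap test, which by chance marks about 1 in 20 groups and was run on 14 groups of 4 or 6 mice: Trim66 in the first library of control gland 133, at 0.58 TPM where the other 3 glands had 0.06 to 0.12 TPM. The repeat library of the same gland had 0.06 TPM.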

How the results depend on the processing

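No paired analysis was possible because the groups share no mouse numbers. TPM gives no read depth. In no comparison of Trim24, Trim28 or Trim33 did leaving out a mouse bring the limma adjusted p past the threshold; of all values of members and ratios under the alternatives, 341 kept their direction and side of the threshold, 47 turned in direction, 5 newly passed and 1 without a test moved. The causes were not tested. Values are log2 differences.

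For the tumors labelled Trim24COE against glands, Trim28 turned to -0.0099 with the adipocyte covariate and Trim33 to -0.017 with median scaling and -0.62 with the adipocyte covariate. For carcinosarcomas against glands, Trim28 was -0.14 with the adipocyte covariate and 1.59 with the epithelium covariate, where it passed, and Trim33 was -1.30 and 1.86, the former past the threshold. For carcinomas against glands, Trim24 was -0.078 with median scaling, -0.016 with quantile normalization, -0.026 with the adipocyte covariate, -0.00090 with the epithelium covariate and -0.024 with the mean of first and repeat libraries, and Trim33 was -0.37 with the adipocyte covariate. For carcinosarcomas against carcinomas, Trim24 was 0.16 with the epithelium covariate, Trim28 was -0.028 with quantile normalization, and the Trim24/Trim33 ratio was -0.058 with the repeat libraries. Trim66 in carcinosarcomas against glands was 0.54 with the repeat libraries (exact permutation p = 0.0286), an alternative chosen after seeing the data.

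For the tumors labelled Trim24COE against non-TRIM24 tumors, Trim24 was 0.81 with no batch term, where it passed. Trim28 was -0.33 with median scaling, -0.17 with quantile normalization, -0.34 with the adipocyte covariate, -0.29 with repeats as separate libraries and -0.21 with no batch term. Trim33 was -0.054, -0.011, -0.35 and -0.11 under the first 4 of these. For non-TRIM24 tumors against glands, Trim24 was -1.05 with no batch term, where it passed, and Trim33 was 0.011 with median scaling, 0.070 with quantile normalization, 0.046 with the epithelium covariate and 0.17 with repeats as separate libraries. In batch 2 alone, with no test, Trim28 was 0.76 and Trim33 turned to 0.25, not among the 47.

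Leaving out 1 mouse at a time, Trim33 ran from -0.22 to 0.36 for Trim24COE tumors against glands, turning without carcinoma 273_5 or 89 or gland 133 or 392, and from -0.48 to 0.11 for carcinosarcomas against glands, turning without gland 417_3. Trim24 ran from -0.20 to 0.17 for carcinomas against glands, turning without carcinoma 89 or gland 133 or 517_3, and Trim66 there from -0.19 to 0.20, turning without carcinoma 89. Trim28 ran from -0.026 to 0.17 for carcinosarcomas against carcinomas, turning without carcinosarcoma 64, and from -0.18 to 0.17 for Trim24COE against non-TRIM24 tumors, turning without 273_5, 89, 64 or FVB001. Trim33 ran from -0.17 to 0.49 in the latter, turning without FVB001, and from -0.51 to 0.17 for non-TRIM24 tumors against glands, turning without gland 417_3 or FVB001. The Trim24/Trim33 ratio ran from -0.49 to 0.0061 for Trim24COE tumors against glands, turning without gland 392, and from -0.20 to 0.22 between the classes, turning without carcinoma 273_5 or carcinosarcoma 897.

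For Trim24COE tumors against glands 2597 became 1308 to 3104 over the alternatives and 1779 to 2911 without 1 mouse, for carcinosarcomas 3511 became 1623 to 5147 and 1345 to 3093, and for carcinomas 542 became 46 to 1437 and 72 to 526. Between the classes 99 became 0 to 121 and 0 to 293; the 0 came from limma with no filter and with either covariate, where 2871, 1043 and 870 genes had an unadjusted p under 0.05. Against non-TRIM24 tumors 386 became 3 to 3427 and 3 to 738, and for non-TRIM24 tumors against glands 119 became 18 to 2330 and 7 to 471. With no filter on low values, list calls fell for HP1, SETDB1 and HUSH (2 to 1 in Trim24COE tumors, 4 to 0 in carcinosarcomas against glands, 1 to 0 against non-TRIM24 tumors), nuclear receptors (4 to 2 and, in carcinomas, 2 to 0, or 1 with a pseudocount of 0.1), KRAB genes (6 to 1 in carcinosarcomas), PHD or bromodomain readers (2 to 1 and, in carcinosarcomas, 1 to 0), NuRD and SMAD genes (1 to 0 each in carcinosarcomas) and other Trim genes (10 to 3 in carcinosarcomas and 1 to 0 between the classes).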
